A study of Mus musculus with 8 samples.

Results

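Gain regions are stretches of chromatin whose accessibility was higher in every library of muscle after knockout of Bmal1 than in every control library. They were chosen from the measured values themselves. A region of chromosomes 1 to 19 was taken when the lowest of the 4 iMSBmal1KO signals lay above the highest of the 4 Vehicle signals, the iMSBmal1KO mean was 20 or more, and the ratio of the iMSBmal1KO to the Vehicle mean was 1.7 or more. These conditions held for 1472 of 477757 autosomal regions (0.308%), in a table of 489637 regions. Of the 62462 autosomal regions with an iMSBmal1KO mean of 20 or more, which could have met the other conditions, 2.36% were gain regions. The values given below for them are a description of what the choice selected, and no test is attached to them. Of the same regions, 5.21% had groups that did not overlap with iMSBmal1KO higher, and 5.81% had a ratio of 1.7 or more. Just inside the limit on the ratio stood regions of Agpat3 (167 to 284 in the means) and Fbxo36, and just outside it regions of Traip (14.1 to 23.9) and Fbrsl1. At the limit on the mean, a region of Dlg1 at 20.01 was kept and a region of Gm5860 at 19.99 was not.

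The signal came from ATAC-seq, in which a transposase cuts and tags open DNA, on nuclei of the gastrocnemius, a calf muscle, of mice aged 6 months. All 8 libraries had the genotype Cre+:iMSBmal1 fl/fl. The 4 Vehicle libraries had the treatment Vehicle, and the 4 iMSBmal1KO libraries the treatment Tamoxifen, the drug that activates an inducible Cre. Because tamoxifen itself differs between the groups, its effect and that of the recombination cannot be told apart. Each preparation of nuclei used 2 muscles, and the time of day of collection is not given in the sources used here. The labels name neither the driver of Cre nor the deleted exon, and do not say whether each library is a separate animal, so the spread between libraries may be partly technical. Signal is the deposited value, read counts scaled by a factor for each library, and values in a row below are given for replicates 1 to 4 in that order. Nuclei of every cell type in the muscle entered each library, so a change in the share of a cell type and a change in accessibility per nucleus cannot be told apart.

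BMAL1, listed in the table under its symbol Arntl, is the transcription factor at the centre of the circadian clock. It pairs with CLOCK or with its relative NPAS2, and the pair binds E-box elements near its target genes. Among these targets are the REV-ERB repressors, which share ROR elements with the ROR activators and through them repress Bmal1 and Npas2. In skeletal muscle the clock governs daily programmes of metabolism and of contractile genes.

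Depth and a single Vehicle library bear on every value below. Depth over all regions spanned 4.31 to 29.5 M read equivalents, where M stands for 1e+06 and a read equivalent is a signal divided by the step that 1 read is worth in that library. Vehicle replicate 4 was the shallowest, and its mitochondrial share of 16.5% lay above the 1.11% to 5.51% of the other libraries. The median gain region held 4 reads in that library, 17 to 28 in the rest of its group and 27 to 79.0 in the knockouts. Vehicle replicate 4 was the lowest of its group in 1030 of the 1472 gain regions (69.97%), against 61.1% of the regions with an iMSBmal1KO mean of 20 or more, and 61 gain regions were at 0 in it. Without it, 980 of the 1472 regions (66.6%) still met every condition, the median ratio of means over all 1472 went from 1.96 to 1.81, and the number at a ratio of 2 or more went from 656 to 409. Leaving out any other library kept 86.8% to 96.3%. Dropping a library cannot make separate groups overlap, so these and later such counts bear only on the limits on the ratio and the mean.

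Scaling moved the count as well. With the total nuclear signal of each library made equal, 815 regions met the rule, 792 of them among the 1472. With loess scaling by abundance, 840 did, of which 770 were shared. As deposited, 72.5% of the 62462 regions had a ratio above 1, with a median ratio of 1.13. The limit on the iMSBmal1KO mean can tilt that set upward, and over all autosomal regions with a ratio the median was 0.995. With a mean of 20 or more asked of either group, the median difference in log2(signal + 1) was still 0.160. Over regions past a filter on low signal it was 0.123. For those it was 0.00037 with the total nuclear signal made equal, and 0.037 without Vehicle replicate 4. The cause of the tilt was not tested. The mirrored rule, with the groups exchanged, selected 795 of 59191 autosomal regions with a Vehicle mean of 20 or more (1.34%).

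**Figure D1:**
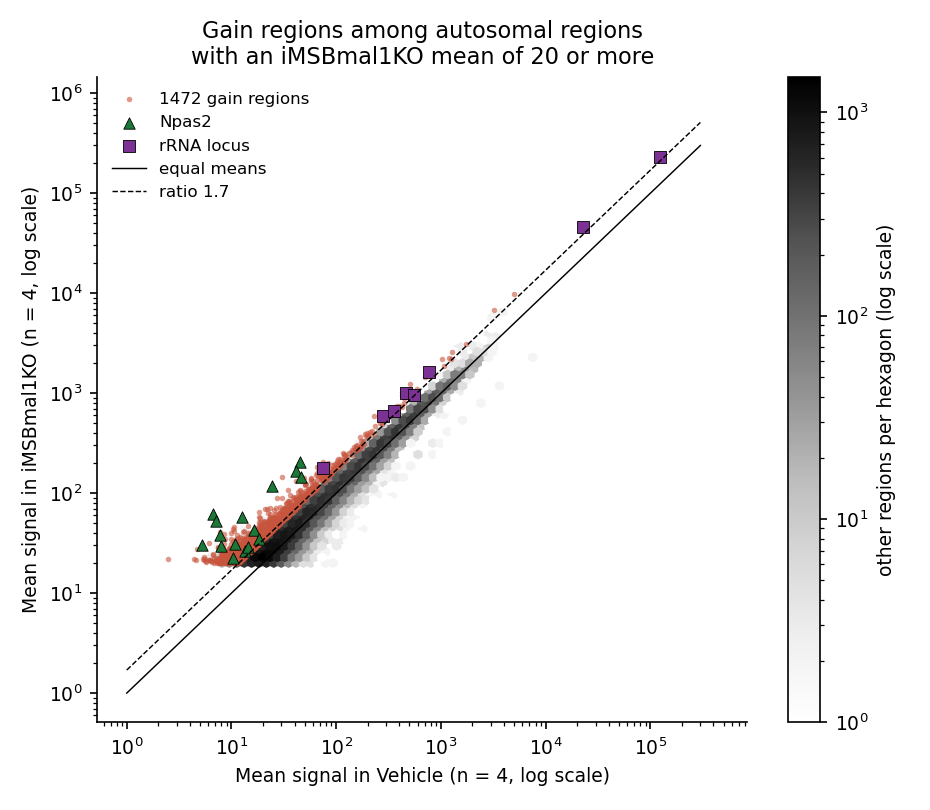
Mean signal in the 4 Vehicle libraries (x axis, log scale) against the mean in the 4 iMSBmal1KO libraries (y axis, log scale) for autosomal regions with an iMSBmal1KO mean of 20 or more. Grey hexagons are the other regions, red points the 1472 gain regions, green triangles the regions of Npas2 and purple squares those of an rRNA locus; the solid line marks equal means and the dashed line a ratio of 1.7, and most gain regions lie close to it at low signal.

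Most gain regions were modest and weakly accessible. Their ratio of means reached 9.30, with a median of 1.96 and quartiles of 1.83 and 2.22. A ratio of at least 3 was reached by 71 regions, of at least 4 by 22 and of at least 5 by 8. The iMSBmal1KO mean was between 20 and 50 in 1038 of them (70.5%), against 51.4% of all 62462 regions. The gap between the groups was narrow, with a median of 1.17 for the lowest iMSBmal1KO value over the highest Vehicle value, and it reached 2 in 22 regions.

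The sequences before 4 gene starts are shown, because there the gain falls on or next to the annotated start of a gene. Npas2 encodes the partner of BMAL1 named above. Cdkn1a encodes p21, an inhibitor of cyclin-dependent kinases. Ttc22 encodes a protein with tetratricopeptide repeats, and 0610040B10Rik is a gene beside Zdhhc4, to which the table assigns the region. The sequences are the 250 bases before the start, from RefSeq (GRCm38.p6), all on the plus strand, at chr1:39194022-39194271, chr17:29093519-29093768, chr4:106622199-106622448 and chr5:143329058-143329307. Capitals mark the bases that lie inside a gain region.
Npas2: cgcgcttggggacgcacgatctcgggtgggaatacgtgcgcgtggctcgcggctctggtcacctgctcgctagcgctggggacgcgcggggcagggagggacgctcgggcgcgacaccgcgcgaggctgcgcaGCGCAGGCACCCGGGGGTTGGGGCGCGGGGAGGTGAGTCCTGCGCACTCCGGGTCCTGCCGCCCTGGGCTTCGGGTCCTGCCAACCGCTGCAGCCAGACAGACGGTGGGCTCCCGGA
Cdkn1a: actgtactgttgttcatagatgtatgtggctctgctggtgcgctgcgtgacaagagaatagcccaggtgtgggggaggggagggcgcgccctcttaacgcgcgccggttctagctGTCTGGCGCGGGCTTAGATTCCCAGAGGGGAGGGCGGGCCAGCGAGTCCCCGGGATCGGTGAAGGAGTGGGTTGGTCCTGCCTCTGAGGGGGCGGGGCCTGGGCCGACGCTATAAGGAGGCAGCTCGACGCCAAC
Ttc22: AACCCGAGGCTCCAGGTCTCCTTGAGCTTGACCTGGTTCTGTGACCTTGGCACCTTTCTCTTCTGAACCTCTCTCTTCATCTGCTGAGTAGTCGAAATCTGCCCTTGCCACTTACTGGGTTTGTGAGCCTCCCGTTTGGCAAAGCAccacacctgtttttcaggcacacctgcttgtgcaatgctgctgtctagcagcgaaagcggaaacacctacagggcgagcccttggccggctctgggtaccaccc
0610040B10Rik: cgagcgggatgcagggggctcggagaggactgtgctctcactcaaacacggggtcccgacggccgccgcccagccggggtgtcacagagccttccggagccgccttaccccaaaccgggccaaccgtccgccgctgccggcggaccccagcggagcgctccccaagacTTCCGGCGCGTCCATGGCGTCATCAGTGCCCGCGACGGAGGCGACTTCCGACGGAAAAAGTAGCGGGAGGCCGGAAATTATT
The capitals cover 117 of the 250 bases for Npas2, 135 for Cdkn1a, 146 for Ttc22 and 82 for 0610040B10Rik. In Npas2 and Cdkn1a the gain region runs up to the start and over it, whereas in Ttc22 it covers the far end of the window. In Ttc22 the nuclear receptor core AGGTCA stands on the minus strand at bases 29 and 42, inside the capitals. Neither that core, nor the E-box CACGTG, the ROR element, the D-box TTATGTAA, the myogenic E-box CAGCTG or the AP-1 site TGANTCA was found on either strand in the other 3 sequences.

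Over all 32851 RefSeq promoter windows of 300 bases (250 before and 50 after the start), 97 windows of 92 genes overlapped a gain region. The E-box CACGTG was in 4 of these 97 (4.12%), against 10.7% of the 11207 windows that overlapped a region with an iMSBmal1KO mean of 20 or more and 7.15% of all windows. AGGTCA, which is also the end of the ROR element, was in 11.3%, 11.8% and 16.3% respectively. The ROR element itself was in 1 of the 97 windows, that of Gm40403, against 0.17% of the 11207 and 0.384% of all windows. CAGCTG was in 14.4%, 15.2% and 16.3% in the same order, and TGANTCA in 6.19%, 4.25% and 7.81%. These matches are letters in a window and describe no binding.

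Npas2 held more gain regions than any other gene, 16 of its 22 regions with an iMSBmal1KO mean of 20 or more. In all the gene had 111 regions in the table, 100 of them with a ratio above 1. Summed over the 16, the signal was 298, 355, 243 and 253 in Vehicle, and 1108, 1219, 979 and 1054 in iMSBmal1KO. The means were 288 ± 51.2 and 1090 ± 101 (SD, n = 4 each), a ratio of 3.79. Every iMSBmal1KO library stood far above every Vehicle library, and Vehicle replicate 4 was not the lowest of its group. The other 95 regions of the gene summed to 520 ± 59.5 and 926 ± 179 (SD, n = 4 each). All 16 still met the rule without Vehicle replicate 4, and 15 did with the total nuclear signal made equal. Of the 22 gain regions at a ratio of 4 or more in the whole set, 8 belonged to Npas2.

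The gain at Npas2 was densest at its start, where 7 regions lay within chromosome 1, 39192753 to 39196447. The largest ratio of all 1472 regions, 9.30, was at 39192970 to 39193108, which the table annotates as transcription start. Its signal was 5.33, 12.3, 2.54 and 6.25 in Vehicle and 77.0, 68.6, 47.7 and 52.7 in iMSBmal1KO. The reads behind these values numbered from 2 to 12 per control and from 40 to 180 per knockout. The most accessible region of the gene among the 16, at 39192753 to 39192965, went from 50.1, 61.6, 32.4 and 37.5 to 185, 235, 181 and 212. The region over the annotated start whose sequence is shown above, at 39194155 to 39194408, went from 32.0, 30.8, 16.5 and 18.8 to 93.3, 133, 107 and 140.5. In each of these 3 regions the lowest iMSBmal1KO value was at least 2.92 times the highest Vehicle value.

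**Figure D2:**
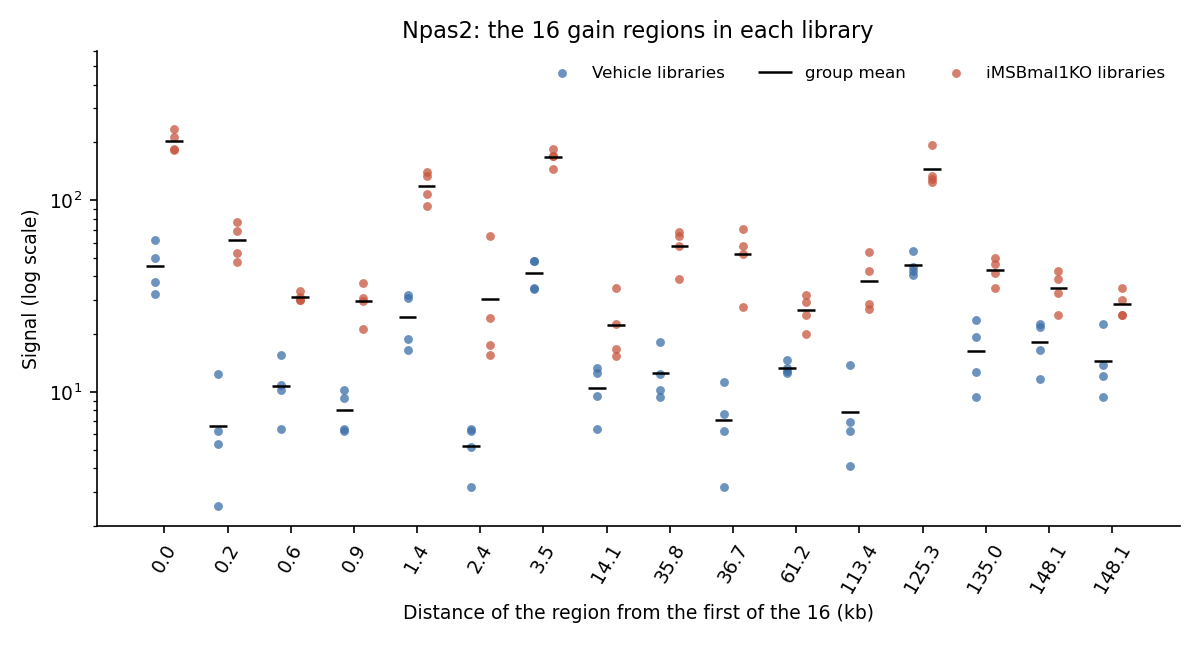
Signal (y axis, log scale) of the 16 gain regions of Npas2 in each of the 4 Vehicle (blue) and 4 iMSBmal1KO (red) libraries, by distance from the first of them in kb (x axis, evenly spaced and not to scale); bars are group means. The means are farthest apart at 0.2 kb (ratio 9.30) and 36.7 kb (ratio 7.34) and closest in the 2 regions at 148.1 kb.

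Further along the gene the gains were spaced over 148 kb. A pair of regions at 35.8 and 36.7 kb from the first went from means of 12.5 and 7.09 to 57.5 and 52.1, ratios of 4.6 and 7.34. An intronic region at 39318033 to 39318339 had 44.8, 54.5, 42.6 and 40.6 in Vehicle and 134, 194, 129 and 124 in iMSBmal1KO. Its means of 45.6 and 145 were above the 24.5 and 119 of the region over the annotated start. The most accessible region, at 39192753, had a higher iMSBmal1KO mean of 203. The smallest gains of the gene, with ratios of 1.91 and 1.98, were at 39340803 and 39340902, which abut each other near its end. There the highest Vehicle value, 22.6 in both regions, lay just under the lowest iMSBmal1KO value of 25.05. The other 6 regions of Npas2 with an iMSBmal1KO mean of 20 or more also had higher means in iMSBmal1KO, but their groups overlapped. One of them, at 39282019, rested on a single library, with 190 in iMSBmal1KO replicate 1 and 15.9 to 19.1 in the other 3.

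Gain regions also lay in the intergenic stretch before Npas2. They were named after their values were seen, and a link to the gene was not tested. A cluster of 4 intergenic regions lay 182 kb before the first Npas2 region, at chromosome 1, 39001308 to 39011022, between Pdcl3 and Npas2. Its span held 9 regions of any level, and the share of gain regions over the whole stretch was not computed. The summed signal of the 4 was 46.9, 58.2, 32.4 and 18.8 in Vehicle and 111, 116, 116 and 112 in iMSBmal1KO, a ratio of 2.91. Another 3 intergenic gain regions lay between this cluster and the gene, with ratios of 2.35, 2.45 and 2.04. The last of these, 86.8 kb before the first Npas2 region, had 54.4, 72.9, 39.4 and 50.03 in Vehicle and 96.2, 143, 124 and 79.0 in iMSBmal1KO.

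Bmal1 itself, the targeted gene, held 6 gain regions among its 23 regions with an iMSBmal1KO mean of 20 or more. Their summed signal was 487, 459, 349 and 331 in Vehicle and 731, 897, 868 and 861 in iMSBmal1KO, a ratio of 2.06. The groups stood apart, as the rule requires. All 6 regions met the rule whichever library was left out and with the nuclear signal made equal. Of these, 5 formed a cluster at chromosome 7, 113241280 to 113251387, whose most accessible region, 113250869 to 113251387, had 199, 244, 140 and 166 in Vehicle and 336, 392, 412 and 419 in iMSBmal1KO. The sixth, at 113220807 to 113221191, went from a mean of 178 ± 44.3 to 331 ± 38.8 (SD, n = 4 each). The other 76 regions of the gene summed to 1952 ± 301 in Vehicle and 2389 ± 119 in iMSBmal1KO, a ratio of 1.22. No region of Bmal1 met the mirrored rule for loss, and accessibility does not show whether an exon was deleted.

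Among the 23 genes of the clock list, those 2 held 22 of the 23 gain regions. Over the whole list, 23 of 227 regions with an iMSBmal1KO mean of 20 or more were gain regions (10.1%), against 2.36% of all such regions. The median log2 ratio of the 227 was 0.10, against 0.18 over all, and 7 regions of the list met the mirrored rule for loss.

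At Cdkn1a, a gene of cell-cycle arrest that p53 is known to induce, all 3 regions with an iMSBmal1KO mean of 20 or more were gain regions. Together with a region assigned to the neighbouring 1700023B13Rik they formed a cluster of 4 at chromosome 17, 29093634 to 29097549. The region across the start, 29093703 to 29094004, had 100.2, 115, 125 and 128 in Vehicle and 233, 304, 273 and 201 in iMSBmal1KO. The largest ratio, 3.58, was at 29097412 to 29097549, with 11.7, 24.7, 30.5 and 6.25 against 62.1, 87.8, 65.6 and 46.4. The most accessible of the 4, the 1700023B13Rik region at 29094451 to 29095747, had 663 to 797 in Vehicle and 1172 to 1903 in iMSBmal1KO. The groups did not overlap in any of the 4, as the rule requires, and the 3 Cdkn1a regions met the rule whichever library was left out. Bbc3, which encodes the p53 target PUMA, was singled out after its values were seen, and a part of p53 was not tested. Of its 9 regions with an iMSBmal1KO mean of 20 or more, 1 was a gain region. That region, at the start, had 3.13 to 30.8 in Vehicle and 31.4 to 46.8 in iMSBmal1KO, so that the groups nearly touched. The lowest Vehicle value was that of replicate 4, and without that library the Bbc3 ratio went from 1.92 to 1.50 and the region did not meet the rule.

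Auts2, which encodes a chromatin regulator best known from neurodevelopment, held 9 gain regions of 28 with an iMSBmal1KO mean of 20 or more, spread over a transcript of 1.10 Mb. Their summed signal was 233, 270, 241 and 191 in Vehicle and 440, 488, 470 and 490 in iMSBmal1KO, a ratio of 2.02. The iMSBmal1KO libraries lay close together here. The other 150 regions of the gene summed to 2878 ± 492 and 3949 ± 518 (SD, n = 4 each), and those sums overlapped between the groups. Only 4 of the 9 met the rule with the nuclear signal made equal, and 7 without Vehicle replicate 4.

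Dupd1, which encodes a dual-specificity phosphatase expressed in muscle, held 5 gain regions of 14. They summed to 55.4, 59.6, 88.3 and 31.3 in Vehicle and 208, 153, 186 and 134 in iMSBmal1KO, a ratio of 2.91. All 5 met the rule with the nuclear signal made equal and without Vehicle replicate 4. The other 28 regions of the gene, which held most of its signal, summed to 1433 ± 233 and 1933 ± 154 (SD, n = 4 each).

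Ank2, Agpat3, Pdzd2 and Fgfr2 held 5 gain regions each. Ank2 encodes ankyrin-B, a scaffold that places ion transporters in the muscle membrane. Its 5 regions summed to 144 to 186 in Vehicle and 279 to 311 in iMSBmal1KO, but none of them met the rule with the nuclear signal made equal. Agpat3, an acyltransferase of phospholipid synthesis, went from 216 to 287 to between 344 and 521, and 2 of its 5 were kept under that scaling. Pdzd2, a PDZ-domain protein, went from 138 to 180 to between 271 and 358, and 4 were kept. The annotations of Fgfr2 and of Galnt2l, which held 4, span transcripts of 2.96 and 4.43 Mb in the table, so the gene names say little about where these regions lie. The 3 neighbouring regions that the table assigns to Galnt2l at chromosome 8, 122144929 to 122145525, overlapped Zfp469 in RefSeq and summed to 87.7 to 147 in Vehicle and 221 to 297 in iMSBmal1KO. At 4930471C04Rik, 3 regions at an annotated transcript end summed to 194 to 316 in Vehicle and 401 to 644 in iMSBmal1KO.

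Genes of the contractile apparatus held gain regions at about the background share. Of 460 regions with an iMSBmal1KO mean of 20 or more in 20 sarcomere genes, 11 were gain regions (2.39%, against 2.36% of all). They lay in Myh4 (3), Neb (3), Ttn (2), Ldb3, Tpm1 and Acta1. Myh4 encodes the myosin heavy chain of the fastest fibres. Its region in coding exon 19, at chromosome 11, 67250529 to 67250679, had 40.5, 25.7, 29.9 and 6.25 in Vehicle and 50.9, 51.0, 40.6 and 51.4 in iMSBmal1KO. The group difference leaned on Vehicle replicate 4 here, and only 5 of the 11 sarcomere regions met the rule without that library. Calcium handling genes had 1 gain region of 186 (0.538%), in Trdn, which encodes the calcium release protein triadin. The Trdn region did not meet the rule without Vehicle replicate 4 or with the nuclear signal made equal. Glucose genes had 0 of 119, atrophy and FOXO genes 0 of 81 and immediate early genes 0 of 41.

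Regulators of muscle identity and of lipid use held gain regions at about the background share. Of 116 regions of myogenic factors, 3 were gain regions (2.59%, against 2.36% of all), with Pax7 and Tead4 among their genes. Pax7 marks satellite cells, the stem cells of muscle, and its intronic region at chromosome 4, 139747380 to 139747616, had 61.8, 51.4, 51.5 and 43.8 in Vehicle and 67.6, 110, 105 and 113 in iMSBmal1KO. iMSBmal1KO replicate 1 stood well below the other 3 there. Tead4, a factor of myoblast differentiation, had a region at 106 to 167 in Vehicle and 172 to 344.5 in iMSBmal1KO, where again iMSBmal1KO replicate 1 was the lowest. With the nuclear signal made equal, 1 of the 3 myogenic regions met the rule. Acsl1, which activates fatty acids, had 2 adjacent gain regions in coding exon 5, with means of 13.6 and 25.1 in Vehicle and 31.1 and 51.9 in iMSBmal1KO, and Cd36, a fatty acid transporter, had 1. These 3 were the gain regions among 120 of the lipid and mitochondrial regulators (2.5%, against 2.36% of all), and none of them met the rule with the nuclear signal made equal.

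Collagen genes held 7 gain regions among 64 in the matrix list (10.9%, against 2.36% of all). Col4a1 and Col4a2, which encode the chains of basement membrane collagen, had 3 and 1, and Col5a1, a fibrillar collagen, had 3. In Col5a1 the most accessible, in intron 9 at chromosome 2, 27953954 to 27954192, had 114, 116, 130 and 71.9 in Vehicle and 220, 254, 209 and 192 in iMSBmal1KO. The neighbouring region at 27954203 to 27954381 went from 19.2, 20.5, 22.2 and 12.5 to 50.5, 80.3, 58.4 and 37.6. The groups were separate in both, as the rule requires, with 192 over 130 and 37.6 over 22.2 where they came nearest. At the start of Col4a1, a region at chromosome 8, 11279518 to 11279620, had 15.99, 16.4, 5.72 and 3.13 in Vehicle and 27.0, 22.6, 25.1 and 28.9 in iMSBmal1KO. All 7 met the rule without Vehicle replicate 4 and 6 with the nuclear signal made equal. The other matrix genes of the list had none, and the median log2 ratio of the 64 regions was 0.24, against 0.18 over all.

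Genes of the neuromuscular junction, where the motor nerve meets the fibre, were represented by Chrna1, the muscle acetylcholine receptor alpha subunit, and Colq, the collagen tail of acetylcholinesterase. These held 3 of the 18 regions in the list for synaptic myonuclei (16.7%, against 2.36% of all), a share that rests on these 2 genes. The Chrna1 region in intron 1, chromosome 2, 73579384 to 73579523, had 25.6, 31.8, 22.9 and 6.25 in Vehicle and 56.9, 44.3, 32.2 and 59.0 in iMSBmal1KO. In intron 7, at 73567163 to 73567296, the values were 7.46, 10.3, 8.26 and 6.25 against 31.2, 20.1, 15.5 and 21.3. In both, iMSBmal1KO replicate 3 was the lowest of its group, and in intron 1 it lay just above the highest Vehicle value. The Colq region, at chromosome 14, 31557349 to 31557450, had 29.9, 28.8, 33.1 and 21.9 against 54.4, 72.8, 48.9 and 71.5. Signal within 1000 bp of the starts of the 4 listed junction genes summed to 184 to 316 in Vehicle and 289 to 366 in iMSBmal1KO, so the list as a whole overlapped between the groups.

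A further 4 genes were singled out after their values were seen and come from no list. Lrp4, the agrin co-receptor, held 3 gain regions among its 8 regions with an iMSBmal1KO mean of 20 or more, with ratios of 1.85, 2.02 and 1.88. Without Vehicle replicate 4, 2 of the 3 Lrp4 regions met the rule, and 1 did with the nuclear signal made equal. Hdac4, a deacetylase that responds to denervation, held 3 of 37, of which the most accessible, in intron 2, had 140, 92.5, 83.3 and 59.4 in Vehicle and 178, 181, 148 and 199 in iMSBmal1KO. Without Vehicle replicate 4 only 1 of the 3 Hdac4 regions met the rule. Dag1, which encodes dystroglycan, held 2 of 16, with ratios of 2.37 and 2.08. Tnfrsf12a, the receptor for TWEAK, held 2 of 7, one at its start with 25.6, 18.5, 29.2 and 21.9 against 47.9, 41.8, 53.7 and 50.2, and both met the rule in every setting that left out a library.

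Among marker genes of the cell types a muscle can hold, gain regions lay in Pax7, Csf1r, Myh4, Chrna1 and Colq. Over 11 marker lists, the summed signal within 1000 bp of a start overlapped between the groups in all 11. It was 84.2 to 123 in Vehicle and 85.9 to 107 in iMSBmal1KO for satellite cells, 386 to 596 and 429 to 600.4 for fibro-adipogenic cells, and 80.1 to 116 and 86.6 to 122 for endothelial cells. Macrophage markers gave 3.13 to 7.46 and 5.14 to 12.5, and the gain region of Csf1r, a macrophage receptor, lay in intron 11 with 21.6 to 29.9 in Vehicle and 35.8 to 48.9 in iMSBmal1KO. The part of any cell type in the gains was not tested. Fast fibre genes gave 2733 to 4536 and 3277 to 3763, and slow fibre genes 147 to 203 and 120 to 155. Tenocyte genes gave 109 to 149 and 131 to 165, smooth muscle genes 73.6 to 94.1 and 72.8 to 93.7, and adipocyte genes 9.25 to 19.7 and 10.7 to 15.5. Of the 42 marker genes, 34 had a region near a start, and the macrophage genes Adgre1 and Cd68 and the adipocyte genes Adipoq and Cidec were among those with none. The satellite cell sum rested on 2 of its 4 genes. The macrophage sum held 2 regions, and the adipocyte sum 2 regions of 1 gene. At so low a signal, overlap of the groups says little about those cells.

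**Figure D3:**
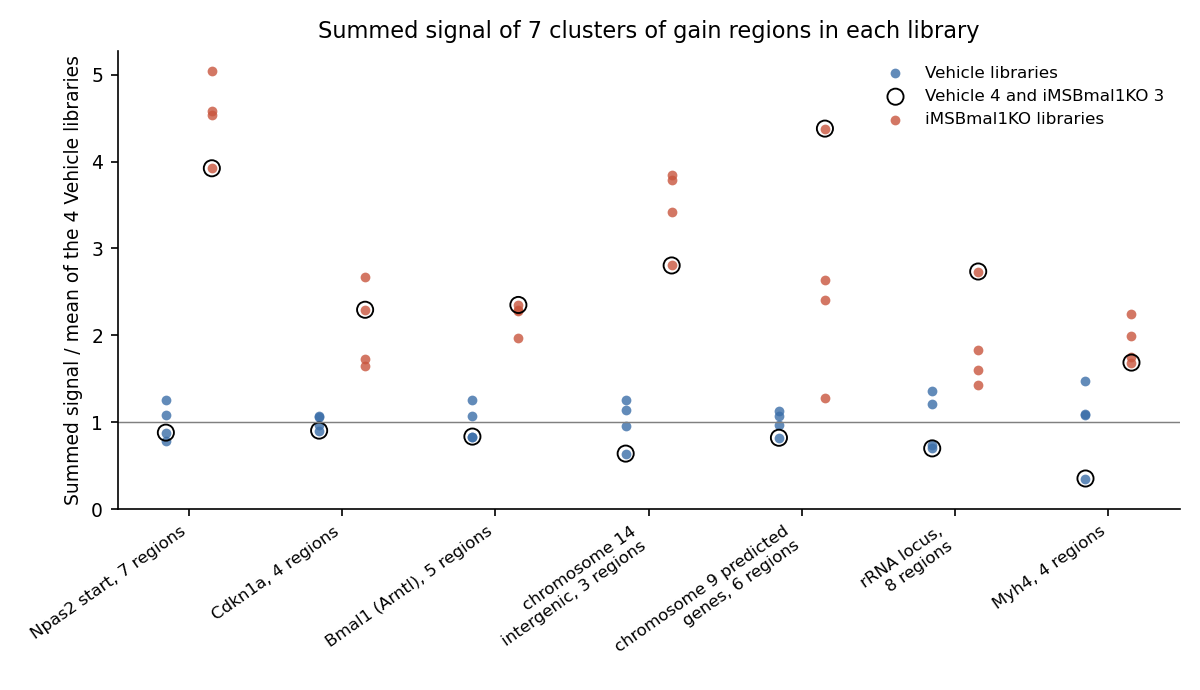
Summed signal of 7 clusters of gain regions in each library, divided by the mean of the 4 Vehicle libraries (y axis, starting at 0), with Vehicle libraries in blue and iMSBmal1KO libraries in red; circles mark Vehicle replicate 4 and iMSBmal1KO replicate 3. The Npas2 start (ratio of means 4.52) and the chromosome 14 cluster (3.47) stand high in all 4 iMSBmal1KO libraries, whereas the chromosome 9 and rRNA clusters are highest in iMSBmal1KO replicate 3.

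Gain regions were mostly solitary. Chained where the gap to the next was 10 kb or less, the 1472 formed 1325 clusters, of which 1226 were single regions, 74 held 2, 14 held 3 and 11 held 4 or more. In all, 246 regions lay in clusters of at least 2. By gene, 859 of the 15172 genes with a region at an iMSBmal1KO mean of 20 or more held a gain region. Of these 761 held 1, 73 held 2 and 25 held 3 or more, and 39 also held a region that met the mirrored rule for loss. Without Vehicle replicate 4, the regions that still met the rule belonged to 564 genes.

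Some intergenic gains had ratios in the range of those of Npas2. At chromosome 14, 73630337 to 73631877, between Sucla2 and Htr2a, 3 regions summed to 135, 123, 103 and 68.8 in Vehicle and 369, 408, 302 and 414 in iMSBmal1KO, a ratio of 3.47. Its first region, 73630337 to 73630435, had the second largest ratio of the set, 8.83, but a Vehicle level near 0, with 4.26, 3.08, 2.54 and 0 against 26.1, 26.8, 13.1 and 21.3. The reads there were at most 4 in a Vehicle library, so this ratio is imprecise. The next, 73630441 to 73630949, was far better covered, with 26.7, 27.7, 28.6 and 37.5 against 147, 132, 113 and 188. The table assigns none of the 3 to a gene.

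Another 3 intergenic regions were among the 10 largest ratios when each gene was counted once. They lay at chromosome 9, 97157780 to 97157963, between Slc25a36 and Trim42 (5.16), at chromosome 14, 76877430 to 76877597, between Serp2 and Lacc1 (5.01), and at chromosome 2, 113978439 to 113978679, between Arhgap11a and Gjd2 (4.65). The last had 4.26, 8.22, 8.90 and 12.5 in Vehicle and 41.1, 38.5, 46.5 and 31.4 in iMSBmal1KO. Vehicle replicate 4 was at 0 in the other 2 of these, whose ratios without that library were 3.87 and 3.76.

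Single regions within genes also reached high ratios. In intron 7 of Arid4a, which encodes a protein that binds RB1, a region at chromosome 12, 71044605 to 71044736, had 5.33, 5.14, 5.08 and 3.13 in Vehicle and 23.5, 40.1, 26.2 and 20.1 in iMSBmal1KO, a ratio of 5.89. In intron 2 of Pla2g10, a secreted phospholipase, the ratio was 5.24, and 3.93 without Vehicle replicate 4, which was at 0. Slc8a1, the sodium-calcium exchanger, had an intronic region at a ratio of 4.62, or 3.46 without Vehicle replicate 4, also at 0 there, and a 3' UTR exon region of Lrrc28 reached 4.42. Near starts, the highest ratios after Npas2 and Cdkn1a were in the homeobox gene Otx1 (3.48), D830032E09Rik (3.44), Gm8705 (3.38), Eif2b3 (3.19), Homez (3.06), Gm43554 (3.04), the palmitoyltransferase gene Zdhhc4 (3.03) and Ttc22 (3.01). Vehicle replicate 4 was at 0 in the D830032E09Rik and Gm43554 regions, and without it their ratios were 2.58 and 2.28. On the log2(signal + 1) scale their differences went from 2.02 to 1.22 and from 1.99 to 1.10. The Ttc22 region, part of which is printed above, had 17.1, 10.3, 10.2 and 6.25 in Vehicle and 28.7, 40.1, 26.6 and 36.4 in iMSBmal1KO. The value of Eif2b3, a subunit of a translation initiation factor, rested on iMSBmal1KO replicate 1, at 71.5, while the other 3 were at 19.2 to 21.5, close to the Vehicle maximum of 15.4.

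The most accessible gain regions formed a group of their own. At an iMSBmal1KO mean of 1000 or more there were 18, led by an rRNA locus, CT010467.1 and CT010467.2, at chromosome 17, 39843115 to 39848787. Its 8 regions summed to 179677, 201174, 109075 and 103784 in Vehicle and 212545, 238471, 405951 and 271638 in iMSBmal1KO. The Vehicle libraries were split here, replicates 1 and 2 standing almost as high as iMSBmal1KO replicate 1. Ribosomal genes exist in many near-identical copies, so reads from elsewhere can be assigned to this locus, and its values are uncertain for that reason. Other regions of this level were an intron of Cdk8 (5011 against 9831 in the means), Mir6236 (1070 against 1867) and intergenic regions of chromosomes 6, 9, 16, 17 and 18 with iMSBmal1KO means of 2178 to 6750. Whether their reads also come from repeated sequence was not tested.

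In these regions a single knockout library was in front. iMSBmal1KO replicate 3 was the highest of its group in 16 of the 18 gain regions with a mean of 1000 or more (88.9%) and in 34 of 69 with a mean of 200 to 1000 (49.3%). Among gain regions with a mean of 20 to 50 it was the highest in 18.7%. Among the 1217 other regions with a mean of 1000 or more it was the highest in 10.7%. Without iMSBmal1KO replicate 3, and also without Vehicle replicate 3 or Vehicle replicate 4, 14 of the 18 met the rule. The part of that library in these gains was not tested further.

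The same library led a cluster of 6 regions of predicted genes near the start of chromosome 9, 3006968 to 3034054 (Gm11168, Gm10719, Gm10717, Gm17535 and intergenic). The summed signal was 168, 144, 160 and 122 in Vehicle and 190, 357, 650.1 and 391 in iMSBmal1KO. iMSBmal1KO replicate 1 lay just above the Vehicle libraries, and replicate 3 stood far above it. How uniquely reads align in this cluster was not tested.

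**Figure D4:**
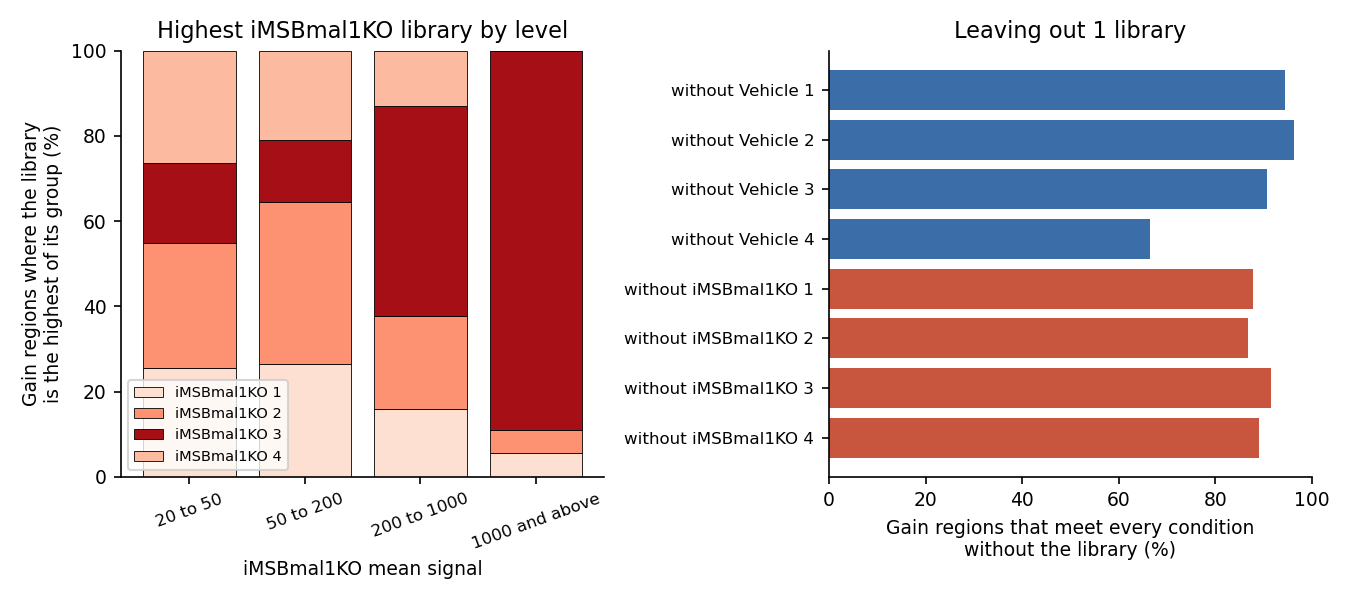
Left, the percentage of gain regions in which each iMSBmal1KO library was the highest of its group (y axis), by iMSBmal1KO mean signal (x axis). Right, the percentage of the 1472 gain regions that met every condition (x axis) when the library named on the y axis was left out; iMSBmal1KO replicate 3 leads in 88.9% of regions at 1000 or more, and leaving out Vehicle replicate 4 keeps 66.6%.

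By annotated section, gain regions had a larger intergenic share and a smaller share at transcription starts than the regions they were drawn from. Of the 1472, 453 were intergenic (30.8%, against 20.6% of the 62462), 300 in an intron after the first (20.4% against 16.8%) and 120 in a first intron (8.15% against 9.95%). At a transcription start there were 270 (18.3% against 32.1%). Of the regions that met the mirrored rule for loss, 12.8% were at a transcription start and 24.2% intergenic. A low share at starts was therefore not particular to the gain regions. The sections 5' UTR exon (9.65% against 8.64%), transcript end (5.91% against 5.14%), coding exon (3.67% against 3.96%) and 3' UTR exon (3.13% against 2.81%) had shares close to each other. Within 1000 bp of a start lay 316 gain regions, or 21.5% (Wilson 95% interval 19.4% to 23.6%, counting error only, regions taken as independent), against 36.4%. That order depends on the comparison, since against all autosomal regions, weak ones included, the share of gain regions near a start was higher, by 2.24 percentage points. Without Vehicle replicate 4, 177 of the 316 met the rule (56.0%), and 318 of the 453 intergenic regions did (70.2%).

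**Figure D5:**
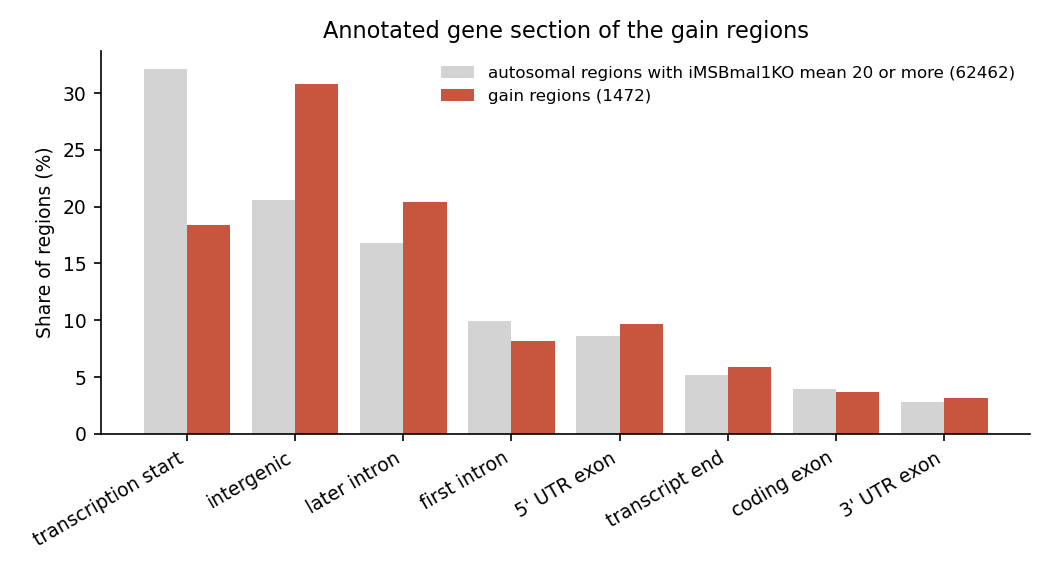
Percentage of regions in each annotated gene section (y axis, from 0) for the 1472 gain regions (red) and for the 62462 autosomal regions with an iMSBmal1KO mean of 20 or more (grey). The red bar is the taller for intergenic (30.8% against 20.6%) and the shorter for transcription start (18.3% against 32.1%).

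Gain regions were also shorter, with a median of 158 bp against 202 bp for the other regions at an iMSBmal1KO mean of 20 or more. Regions that met the mirrored rule for loss were about as short, with a median of 162 bp. The comparison was not matched for signal, and 70.5% of gain regions had a mean of 20 to 50, against 51.4% of all 62462. Of the gain regions 41.0% abutted another region, against 46.2%. The spread within a group was wider in Vehicle, with a median coefficient of variation of 33.4% against 18.1% in iMSBmal1KO. For the other regions these were 27.0% and 20.6%. The rule used the same values, so the choice itself can shape the spreads of the gain regions. By chromosome, the share of regions that were gain regions ran from 1.69% on chromosome 11 to 3.24% on chromosome 13, with chromosome 1 at 2.86% and its 117 gain regions the most of any. By gene type, 864 were in protein-coding genes (1.97% of such regions), 11 of 200 in miRNA genes (5.5%) and 7 of 63 in rRNA genes (11.1%), all 7 at the locus described above.

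In a model across the whole table, few gain regions stood out singly. limma, with Benjamini-Hochberg adjustment over 124901 regions and a threshold of 0.05, called 110 regions (0.0881%), of which 71 were lower (0.0568%) and 39 higher in iMSBmal1KO (0.0312%). Of the 39, 38 were gain regions. The last one was a region of Il1rapl1 on chromosome X. Because the rule and the model use the same contrast, this overlap is a count and no support. The 38 lay in 20 genes and 9 intergenic regions. Npas2 held 9 of them and CT010467.1 held 2, while Bmal1, Cdkn1a, 1700023B13Rik, Auts2, Arid4a, Lrrc28 and 4930471C04Rik were among the genes with 1. The remaining 1434 gain regions were not called, although all 1472 had passed the filter on low signal.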

How the data were processed

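Chromatin accessibility was measured in 8 libraries, 4 Vehicle and 4 iMSBmal1KO, grouped by their labels. The deposited table holds a signal per region and library, which the authors scaled by a factor for each library. Per the submitters' processing notes, Partek, Bowtie2, MACS2 and DESeq2 were used, with the builds mm10 and GRCm39, but their roles and settings are not given in the sources used here. Whole multiples of 1 step per library made up 98.3% to 99.8% of non-zero values (tolerance 0.02 reads). Since the rest were not whole, the signal was not treated as counts.

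The gain rule was applied to the deposited signal, and all 8 columns matched a sample. Its members and the gene lists were chosen with earlier results of these data known. Named by rule were up to 12 genes with the most gain regions, the 10 of largest ratio, the 10 of largest mean, the 10 of largest ratio within 1000 bp of a start (at most 1 region per gene in these 3), up to 12 members of the lists by ratio and the 5 largest clusters. The other list members, Cdkn1a's cluster as a whole, the upstream Npas2 regions, Lrp4, Dag1, Hdac4, Bbc3 and Tnfrsf12a were named after their values were seen. Some genes and regions are counted in the totals but not reported here by themselves.

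Group was the only term in limma 3.58.1 (R 4.3.3), with a trended, robust fit to log2 of the signal plus a pseudocount of 1. The filter on low signal asked for 0.762 read equivalents per M in 4 or more libraries and a sum of at least 15. The fit was tested on simulated data. Coordinates are the table's, counted from 1. Of its gene names 82.7% matched RefSeq GRCm38.p6, and 99.9% of those overlapped the RefSeq gene, so RefSeq promoters and neighbours of that build were used. Python 3.11.15 with pandas 2.3.3 made the tables, and matplotlib 3.10.9 drew the plots. Same-numbered libraries of the groups had deviations correlated at -0.06, 0.14, 0.02 and 0.02, so the numbers were not taken as pairs.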

Additional observations from a re-analysis of the deposited data

Results flagged for a closer look

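Single libraries that stood apart within a group of 4 were sought among 258 group values. In 20 the gap between the highest or the lowest library and its nearest neighbour exceeded Dixon's 95% critical share of the range of the group. About 1 in 20 independent, normally distributed values would do so by chance, or 12.9 here. The values here come mostly from regions chosen by the rule and share the same 8 libraries. The 2 numbers therefore cannot show an excess over chance. In the Npas2 region of chromosome 1 at 39318033, iMSBmal1KO replicate 2 stood at 194, and the rest of its group at 124 to 134. Vehicle replicate 4 gave 3.13 in the Neb region of chromosome 2 at 52315924, against 13.3 to 15.4 elsewhere in its group. For the Eif2b3 region of chromosome 4 at 117068117, the value was 71.5 in iMSBmal1KO replicate 1 and 19.2 to 21.5 in its group otherwise. In the intergenic region of chromosome 6 at 3200771, iMSBmal1KO replicate 3 stood at 3237, and the rest of its group at 2327 to 2384. Vehicle replicate 4 gave 34.4 in the Col4a1 region of chromosome 8 at 11249752, against 18.1 to 20.3 elsewhere in its group. For the Col4a1 region of chromosome 8 at 11249752, the value was 81.8 in iMSBmal1KO replicate 1 and 45.3 to 46.4 in its group otherwise. The signal of Vehicle replicate 4 was 28.1 in the Gm10717 region of chromosome 9 at 3027706, where the others of its group had 34.3 to 35.2.

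In the intergenic region of chromosome 9 at 3258598, iMSBmal1KO replicate 3 stood at 2544, and the rest of its group at 2025 to 2081. iMSBmal1KO replicate 1 gave 36.5 in the Tpm1 region of chromosome 9 at 67044043, against 16.3 to 19.2 elsewhere in its group. For the Mir6236 region of chromosome 9 at 110281245, the value was 2256 in iMSBmal1KO replicate 3 and 1707 to 1790 in its group otherwise. The signal of iMSBmal1KO replicate 3 was 40.6 in the Myh4 region of chromosome 11 at 67250529, where the others of its group had 50.9 to 51.4. In the Myh4 region of chromosome 11 at 67253956, iMSBmal1KO replicate 3 stood at 28.6, and the rest of its group at 32.6 to 33.0. Vehicle replicate 4 gave 3.13 in the Arid4a region of chromosome 12 at 71044605, against 5.08 to 5.33 elsewhere in its group. For the intergenic region of chromosome 16 at 91534585, the value was 3954 in iMSBmal1KO replicate 3 and 2735 to 2913 in its group otherwise. The signal of iMSBmal1KO replicate 3 was 3002 in the intergenic region of chromosome 17 at 22876267, where the others of its group had 1938 to 1995. In the CT010467.1 region of chromosome 17 at 39847133, iMSBmal1KO replicate 3 stood at 1230, and the rest of its group at 859 to 888. Vehicle replicate 4 gave 50.03 in the CT010467.1 region of chromosome 17 at 39847241, against 81.0 to 85.3 elsewhere in its group. For the summed marker signal of the satellite cell list, the value was 123 in Vehicle replicate 3 and 84.2 to 90.4 in its group otherwise. The signal of iMSBmal1KO replicate 3 was 72.8 summed over the smooth muscle markers, where the others of its group had 90.3 to 93.7. In the summed signal of the gain regions of Galnt2l, iMSBmal1KO replicate 1 stood at 360, and the rest of its group at 270 to 285.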

How the results depend on the processing

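The count of gain regions, 1472 as deposited, was 815 with the total nuclear signal made equal and 840 with loess scaling. A ratio limit of 1.5 gave 2249 and of 2 gave 656, and a limit on the iMSBmal1KO mean of 10 gave 3148 and of 50 gave 434. Leaving out 1 library gave 1163 (without Vehicle replicate 4) to 3895 (without Vehicle replicate 2). The count was 2370 without Vehicle replicate 1, and 2800 and 2385 when iMSBmal1KO replicates 3 and 4 were dropped in turn. Median-of-ratios factors gave 1518 and merging abutting regions 1395.

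The limma count of 110 changed regions was 193 with no filter on low signal, 218 with the total nuclear signal made equal, 342 with loess scaling, 302 with limma-voom on read equivalents, 36 at a threshold of 0.01 and 175 at 0.1. Leaving out 1 library gave 32 (without Vehicle replicate 1) to 281 (without Vehicle replicate 4), with 41 without Vehicle replicate 3 and 43, 39 and 57 without iMSBmal1KO replicates 2, 3 and 4. With the replicate block it was 100, 33 of them gain regions. In none of these was the cause tested.

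The share of gain regions near a start, set against that of the regions compared (21.5% and 36.4%), gave a difference in percentage points that was -8.77 against regions past the filter, -12.4 with a window of 500 bp and 2.24 against all autosomal regions, which turns its direction. The number of clusters stayed within 1220 to 1440 over the gaps tried. Of 112 named regions under 13 settings, 1454 values of the log2 ratio moved by less than the spread, 2 moved by more (Npas2 at 39193654 and Arid4a, with a pseudocount of 5) and 0 changed sign. The rule puts every iMSBmal1KO value above every Vehicle value. Leaving out a library or changing the pseudocount therefore could not change the sign. The spread was the larger of the SDs within the groups. Leaving out a library moves a group mean by less than the SD of that group. Those settings therefore could not exceed the spread, and their values do not show stability. Without Vehicle replicate 4, the D830032E09Rik value went from 2.02 to 1.22. The value of the Neb region at 52315924 went from 1.01 to 0.54, and that region did not meet the rule. The planned count models were not run, because whole reads could not be recovered for all values. Depth limits the weak regions most, with a median of 4 reads per gain region in Vehicle replicate 4.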

Other observations

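Outside the autosomes, the other conditions of the rule held for 35 regions of chromosome X, 1 of chromosome Y, 0 mitochondrial regions and 5 regions of the unplaced scaffold JH584304. On chromosome X, an intron of Gpc3, which encodes glypican-3, at 52287399 to 52287701, had 4.26, 12.3, 6.35 and 9.38 in Vehicle and 27.8, 25.9, 34.6 and 13.8 in iMSBmal1KO. The start of Slc6a8, the creatine transporter, at 73676799 to 73676985, had 21.3, 17.5, 24.1 and 18.8 against 36.8, 36.8, 57.3 and 40.1. A region of Cox7b, a subunit of cytochrome c oxidase, had means of 20.3 and 41.4. In the intron of Il1rapl1 that limma called, at 87238357 to 87238591, the values were 257, 384, 333 and 231 against 623, 542, 698 and 599.6. The groups were separate in each, as the conditions require. In all 5 scaffold regions, whose ratios were 2.30 to 3.47, iMSBmal1KO replicate 3 was the highest library.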
